A study of Mus musculus with 6 samples.

Results

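The genes described here are 40 genes of G2 phase, mitosis and the kinetochore, taken by name from the 55494 rows of the deposited count table; all 40 were found and all passed the filter on low counts. They were measured by bulk RNA sequencing of poly(A) RNA from primary muscle stem cells of wildtype mice, the cells that repair adult muscle, cultured for 2 days. The 3 control libraries were cultured without 11,12-EET and the 3 EET libraries with it; 11,12-EET is an epoxyeicosatrienoic acid, a lipid mediator that cells make from arachidonic acid. The labels give no dose, vehicle, age or number of mice. They also do not state whether the replicates are different animals, different wells or repeat preparations, so every p-value refers to the variation among these 6 libraries alone, and that variation may be technical. Library totals ran from 30371291 to 37243882 counts, and single members held 982 to 27559 counts in a library.

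As background, entry into mitosis is driven by the kinase CDK1 bound to cyclin B, and Polo-like and Aurora kinases then shape the spindle. Chromosomes attach to spindle microtubules through the kinetochore, a protein assembly built on the centromeric histone variant CENP-A. The spindle checkpoint holds back the anaphase-promoting complex (APC/C) until all chromosomes are attached, and cyclin destruction, anaphase and cytokinesis follow. Many of these genes are transcribed late in the cell cycle, under the control of the DREAM and B-MYB-MuvB complexes, the CCAAT-binding factor NF-Y and FOXM1. Muscle stem cells are quiescent in resting muscle and enter the cycle when they are taken into culture.

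The mitotic genes did not move 1 way with EET. Of the 40 members, 15 rose, 17 fell and 8 did not pass the test (edgeR quasi-likelihood test over all 16097 genes that passed the filter, Benjamini-Hochberg adjusted p under 0.05, the rule by which genes are called here). Over all genes tested 47.9% were called, 24.6% higher and 23.3% lower. The median log2 fold change of the members was −0.022, beside 0.005 for all genes tested, and no member reached a 2-fold change. The largest rise was that of Birc5 (0.997 ± 0.091, log2 fold change ± standard error of the fit, as throughout) and the largest fall that of Aspm (−0.76 ± 0.11). EET libraries lay wholly above the controls for 17 members and wholly below for 18, and overlapped them for 5; over all genes tested 57.7% had no overlap, 29.6% above and 28% below.

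Summed over the 40 genes the level was 5882 ± 62.0 CPM in controls and 5547 ± 71.3 CPM with EET (CPM, counts scaled to library size with edgeR's TMM factors; mean ± SD, n = 3 each; exact two-sided permutation p = 0.1, the smallest that 3 against 3 libraries can give, adjusted p = 0.113 over the 18 sums and ratios compared). The same p held for the summed level of each of the 7 roles described below (each exact permutation p = 0.1, adjusted p = 0.113). The members took 0.602 ± 0.00581% of all counts in controls and 0.541 ± 0.0143% with EET. The sum of Top2a and Mki67 alone differed by −381 CPM, more than the −335 CPM of all 40 genes together. A lower sum in bulk RNA cannot tell fewer dividing cells from less mRNA per cell. The sums were also not corrected for the trend with transcript length described below. In the 2 corrected fits given there the median log2 fold change of the members was −0.026 and 0.0063. Mki67 was at 0.090 and 0.027, not called, and Top2a at −0.17 and −0.14, called lower. Levels were close between replicates, with a median coefficient of variation of 3.59% in controls and 5.55% with EET. Per kilobase of the longest coding transcript, control levels ran from 7.55 CPM per kb for Aspm to 138 for Top2a.

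**Figure D1:**
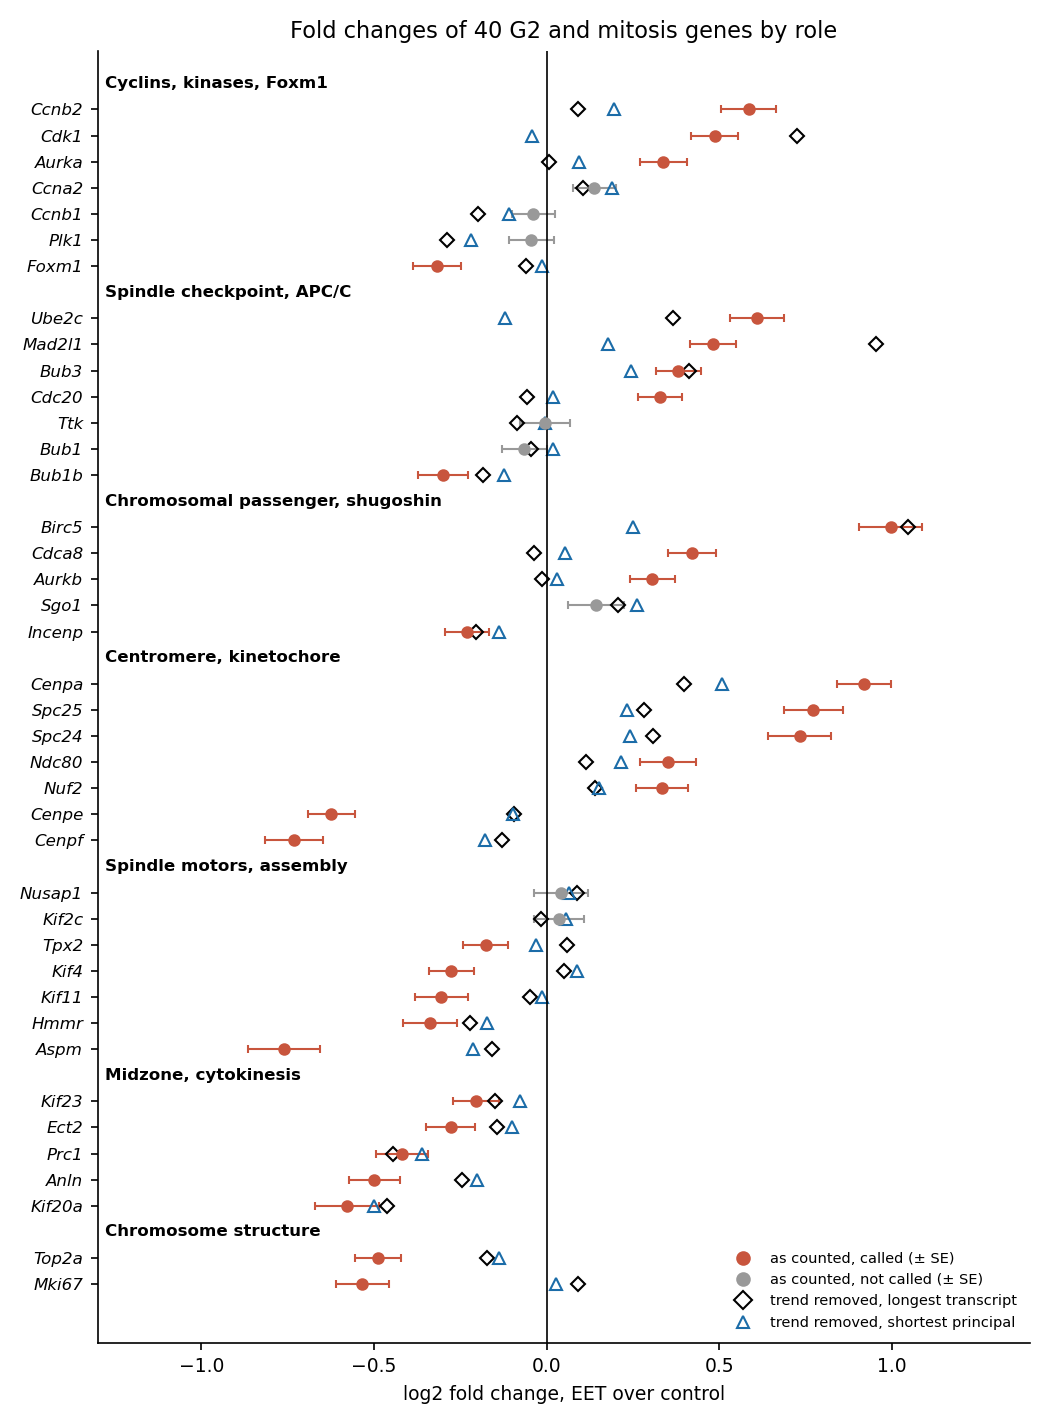
Log2 fold change (EET over control, horizontal axis) of the 40 members, grouped by role. Filled circles with bars are the fit on counts as deposited with its standard error, red where called and grey where not; diamonds and triangles are the 2 fits with the transcript length and GC trend removed. Birc5 and Cenpa stand farthest to the right, Aspm and Cenpf farthest to the left, and all 5 midzone and cytokinesis genes lie left of 0.

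The direction of a member went with the length of its mRNA. Across the 40 genes the log2 fold change correlated with the log2 length of the longest coding transcript at r = −0.72 (Spearman rho −0.73), and with the length of the shortest principal coding transcript, the shortest one that the annotation marks as coding for a gene's main protein form, at r = −0.92 (rho −0.92). These are descriptions across genes of the same 6 libraries, and genes are not independent replicates; over all 13811 protein-coding genes tested r was −0.66 for the longest and −0.64 for the shortest principal transcript. All 15 members that rose have a shortest principal transcript under 2500 bases, a class of 17 members in which 51.6% of coding genes rose and 4.39% fell. None of the 23 longer members rose. Of the 13 members at 3500 bases and over, 12 fell, beside 55.2% of coding genes of that length; the class bounds were chosen after the values were seen. The remaining one is Sgo1 (0.14 ± 0.081, adjusted p = 0.165, not called).

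Which transcript is taken matters most for Mad2l1, Birc5, Cdk1 and Ube2c. Their longest coding transcripts are 7557, 3334, 4375 and 2191 bases and their shortest principal ones 1725, 947, 1253 and 967 bases, and the counts per gene do not say which was present. The tilt can be given for each library: over the members, the departure of a library from the 6-library mean changed per doubling of the longest length by 0.15, 0.25 and 0.25 log2 units in controls 1 to 3 and by −0.28, −0.24 and −0.14 in EET libraries 1 to 3. Control 1 and EET 3 were the libraries least tilted in their groups. Fold changes of the members, and the calls of the other genes, are therefore also given from 2 fits in which every library's trend with transcript length and GC content, as fitted over all coding genes, was removed, once on the longest and once on the shortest principal transcript. A value from these corrected fits sets a gene against mRNAs similar to it in length and GC content. The second of these fits was added after the data had been seen. Levels, sums and ratios in CPM are as counted and were not corrected. Levels and ratios per kilobase use the longest coding transcript, and their size and sign can depend on that choice.

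**Figure D2:**
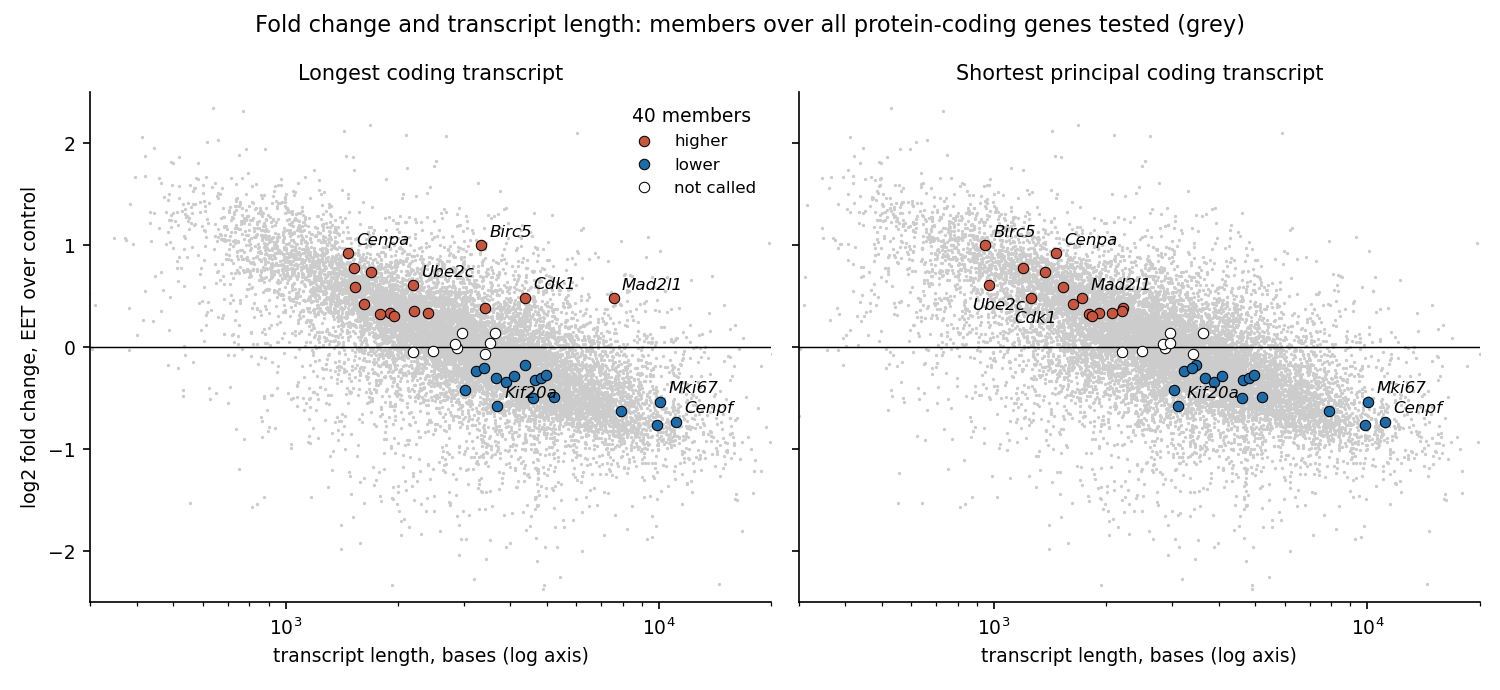
Log2 fold change (EET over control, vertical axis) against transcript length in bases (log axis) for the 40 members, coloured by call, over all protein-coding genes tested in grey; the left panel uses the longest coding and the right the shortest principal coding transcript. In the right panel all 15 members called higher lie under 2500 bases and all 17 called lower above it.

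With the trend removed on the longest transcript, 9 members were higher, 12 lower and 19 not called (median −0.026), beside 31.5% called among all genes tested, 16.3% higher and 15.2% lower. On the shortest principal transcript 10 were higher and 9 lower (median 0.0063), beside 32.9% called among all genes, 17% higher and 15.9% lower. In all 3 fits 6 members were called higher (Birc5, Cenpa, Spc24, Spc25, Mad2l1 and Bub3) and 7 lower (Kif20a, Prc1, Anln, Hmmr, Top2a, Cenpf and Incenp). The share of all genes tested that was called alike in all 3 fits was not counted, so the 6 and the 7 cannot be set against a background. The shortest principal transcripts have 947 to 2218 bases in the 6 genes called higher and 3026 to 11130 in the 7 called lower. These sets, and the roles they hold, therefore still differ in transcript length. No member was called in opposite directions in the fit as counted and the fit on the longest transcript. By role, the 6 called higher hold 3 centromere and kinetochore genes, 2 checkpoint genes and 1 passenger gene. The 7 called lower hold 3 midzone and cytokinesis genes and 1 each of the centromere and kinetochore (Cenpf), passenger (Incenp), spindle (Hmmr) and chromosome structure (Top2a) genes.

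**Figure D3:**
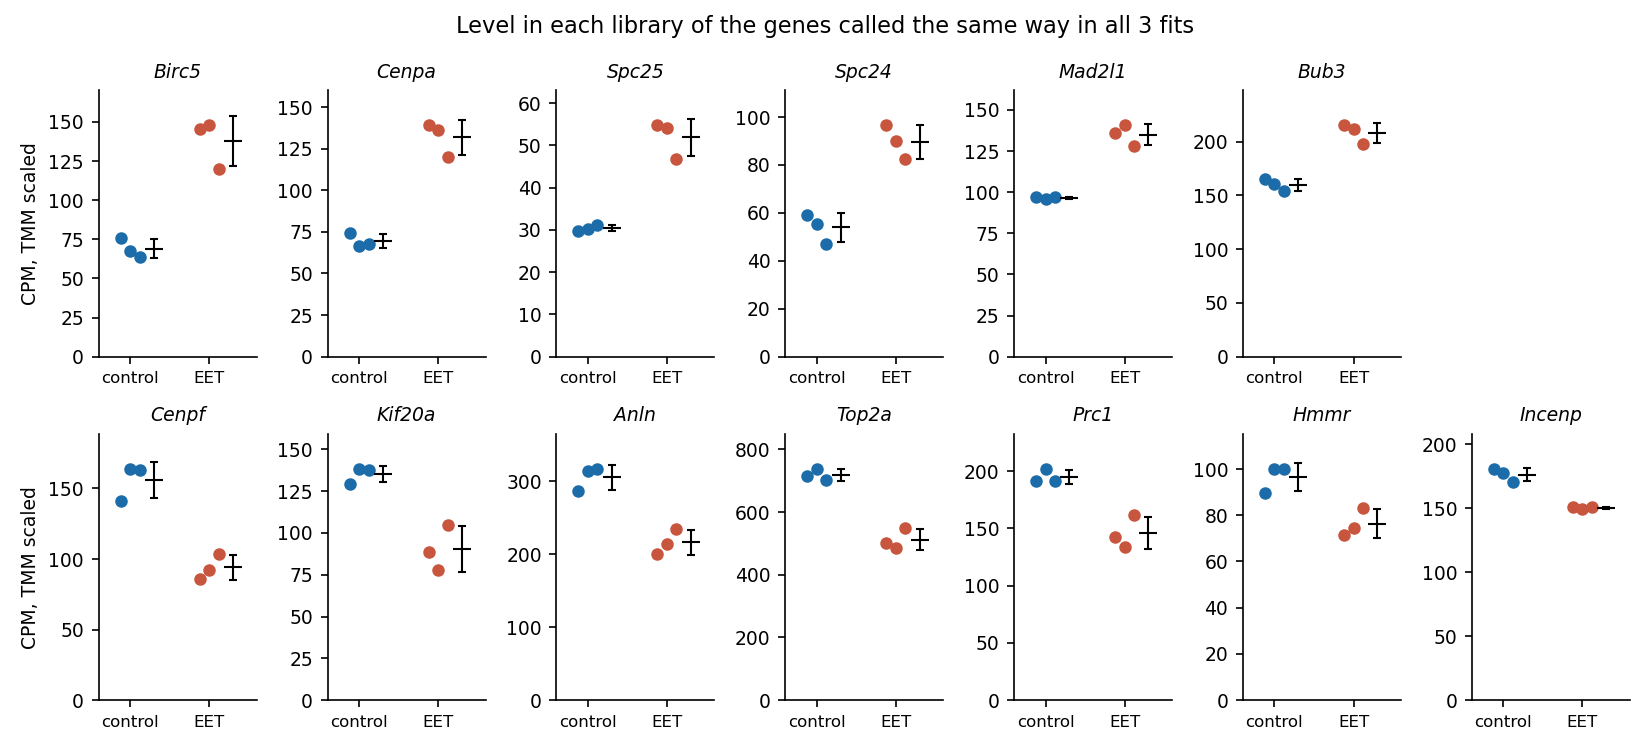
CPM (TMM scaled, linear axes from 0) in each of the 3 control (blue) and 3 EET (red) libraries for the 13 members called the same way in all 3 fits, with mean ± SD in black. The upper row holds the 6 called higher and the lower row the 7 called lower, and in none of them do the groups overlap.

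Many promoters of these genes hold 2 short motifs. TTTGAA is the core of the cell cycle homology region, the element bound by DREAM and MuvB complexes, and CCAAT is the element of NF-Y. RefSeq promoter windows (250 bases before to 50 after a gene's start, GRCm38.p6) were found for 33 members. TTTGAA, searched on both strands, was present in 25 of the 33 (75.8%), beside 14.5% of the 11468 tested genes with a window of the same length. CCAAT, searched likewise, was in 26 (78.8%, beside 42.5%), and both were in 22 (66.7%, beside 5.85%). Neither motif contains the other. The motif did not separate the directions: TTTGAA was in 10 of 13 windows of members that rose, 12 of 13 of those that fell and 3 of 7 of those not called. A match is only a match of letters, and none was found for either motif in the windows of Birc5, Mad2l1, Nuf2 and Nusap1.

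The last 150 bases before the start are shown for 3 members that rose (Cdk1, Bub3 and Ube2c) and 3 that fell (Top2a, Kif11 and Prc1), because all 6 hold both motifs there whatever their direction; capitals mark TTTGAA and CCAAT or their reverse complements, TTCAAA and ATTGG. They lie at chr10:69352913-69353062 (minus strand), chr7:131560220-131560369 (plus strand), chr2:164769779-164769928 (plus strand), chr11:99024190-99024339 (minus strand), chr19:37376232-37376381 (plus strand) and chr7:80294326-80294475 (plus strand), and each is written 5′ to 3′ in the direction of the gene.
Cdk1: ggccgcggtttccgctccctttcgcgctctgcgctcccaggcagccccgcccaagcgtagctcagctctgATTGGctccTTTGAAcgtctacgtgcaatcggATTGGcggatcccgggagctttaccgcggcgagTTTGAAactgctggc
Bub3: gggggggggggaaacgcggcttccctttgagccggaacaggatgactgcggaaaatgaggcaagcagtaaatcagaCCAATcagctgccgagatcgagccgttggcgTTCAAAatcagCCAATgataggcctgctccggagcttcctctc
Ube2c: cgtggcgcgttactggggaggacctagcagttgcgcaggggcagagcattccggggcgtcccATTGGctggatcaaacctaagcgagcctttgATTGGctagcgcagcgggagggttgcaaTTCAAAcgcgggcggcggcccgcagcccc
Top2a: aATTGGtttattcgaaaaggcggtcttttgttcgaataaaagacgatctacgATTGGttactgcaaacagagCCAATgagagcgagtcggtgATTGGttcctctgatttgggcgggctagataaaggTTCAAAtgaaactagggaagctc
Kif11: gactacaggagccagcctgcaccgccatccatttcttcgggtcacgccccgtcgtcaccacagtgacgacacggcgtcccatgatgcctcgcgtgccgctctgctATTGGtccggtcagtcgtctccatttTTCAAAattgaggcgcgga
Prc1: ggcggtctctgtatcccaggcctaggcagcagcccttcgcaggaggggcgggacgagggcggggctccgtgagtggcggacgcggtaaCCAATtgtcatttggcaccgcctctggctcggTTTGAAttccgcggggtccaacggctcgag

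Among the cyclins and kinases that drive entry into mitosis, with the transcription factor gene Foxm1, 3 of 7 rose, 1 fell and 3 did not pass, and their summed level was 928 ± 11.9 CPM in controls and 1030.3 ± 11.6 CPM with EET. Cdk1, the mitotic kinase itself, was at 171, 159 and 156 CPM in the 3 controls and at 238, 229 and 213 CPM with EET. It rose by 0.49 ± 0.069, adjusted p = 4.29e-05, with every EET library above every control. With the trend removed it was at 0.73 on the longest and −0.042 on the shortest principal transcript (adjusted p = 0.506), so its call depends on that choice. The 2 B-type cyclins, partners of Cdk1, differed. Ccnb1 was at 203, 211 and 205 CPM in the 3 controls and at 194, 204 and 205 CPM with EET. Its groups overlapped (−0.039 ± 0.062, adjusted p = 0.651), and with the trend removed on the longest transcript it was called lower at −0.20 (on the shortest −0.11, adjusted p = 0.0728).

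Ccnb2 rose by 0.59 ± 0.08, adjusted p = 3.14e-05, from 43.8 to 46 CPM in controls to 61.3 to 70.8 CPM with EET. With the trend removed Ccnb2 was at 0.092 on the longest transcript (adjusted p = 0.249, not called) and at 0.20 on the shortest principal one (called higher). As counted, the log2 ratio of Ccnb1 to Ccnb2 per kilobase was 1.505 ± 0.062 in controls and 0.88 ± 0.14 with EET (mean ± SD, n = 3 each, exact two-sided permutation p = 0.1, adjusted p = 0.113). A ratio of this kind shows unequal change of the genes and not which of them moved. Ccna2, the cyclin of S and G2 phase, missed the threshold (0.14 ± 0.062, adjusted p = 0.0817) although its EET libraries lay above the controls. With the trend removed it was at 0.10 on the longest transcript (adjusted p = 0.0768) and called higher, at 0.19, on the shortest principal one. It was not called without any single library (adjusted p up to 0.24) and was called without both control 1 and EET 3 (0.14, adjusted p = 0.0241).

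Plk1, the Polo-like kinase of mitotic entry and cytokinesis, was at 139.7, 139.5 and 140.1 CPM in the 3 controls and at 143, 129 and 135 CPM with EET. Its groups overlapped and it was not called (−0.044 ± 0.066, adjusted p = 0.624), whereas with the trend removed it was lower in both corrected fits, at −0.29 and −0.22. Aurka, the spindle pole Aurora kinase, rose by 0.34 ± 0.068, adjusted p = 0.000769 and lost its call in both corrected fits (0.0068 and 0.093). Foxm1, a transcription factor of G2 and M phase genes, fell (−0.32 ± 0.07, adjusted p = 0.00166) and likewise lost its call (−0.06 and −0.013).

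Of the spindle checkpoint and APC/C genes 4 of 7 rose, 1 fell and 2 did not pass (3 higher and 1 lower in the longest, 2 and 0 in the shortest principal corrected fit), with a summed level of 876 ± 22.1 CPM in controls and 1043 ± 22.1 CPM with EET. Mad2l1 (ENSMUSG00000029910.14, chromosome 6, 66535390 to 66547220, plus strand) encodes MAD2, the protein that seizes the APC/C activator CDC20, and was at 96.7, 96.0 and 96.8 CPM in the 3 controls and at 136, 141 and 128 CPM with EET. The 3 controls were within 1 CPM of each other and every EET library was higher (0.48 ± 0.066, adjusted p = 3.32e-05). In the corrected fits it was called higher at 0.95 and 0.18. Bub3, which brings checkpoint kinases to the kinetochore, was at 165, 161 and 154 CPM in the 3 controls and at 215, 212 and 198 CPM with EET. It rose by 0.38 ± 0.066, adjusted p = 0.000218, without overlap between the groups, and was still higher in the corrected fits (0.41 and 0.24).

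Of the partners of Bub3, Bub1b, which encodes the checkpoint protein BUBR1, moved the other way. It was at 150.0, 153 and 149 CPM in the 3 controls and at 118, 115 and 134 CPM with EET. Bub1b fell (−0.30 ± 0.072, adjusted p = 0.00287); its value was −0.18 and called on the longest transcript but −0.12 and not called on the shortest principal one (adjusted p = 0.0692). The checkpoint kinases Bub1 (−0.064 ± 0.065, adjusted p = 0.456) and Ttk (−0.0055 ± 0.073, adjusted p = 0.959) were not called in any of the 3 fits. Cdc20, the activator of the APC/C, was at 189.8, 180.1 and 175 CPM in the 3 controls and at 231, 231 and 223 CPM with EET. Cdc20 rose by 0.33 ± 0.064, adjusted p = 0.000563, and was near 0 in the corrected fits (−0.057 and 0.018, not called). Ube2c, the ubiquitin-conjugating enzyme of the APC/C, was at 137, 126 and 117 CPM in the 3 controls and at 202, 202 and 176 CPM with EET. It rose by 0.61 ± 0.078, adjusted p = 1.99e-05; the corrected value was 0.37 and called on the longest transcript, and −0.12 on the shortest principal one (adjusted p = 0.053).

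The chromosomal passenger complex, which corrects faulty attachments at the centromere and then moves to the midzone, was split. Its enzyme and 2 of its 3 other subunits rose and its scaffold fell, with a summed level, Sgo1 included, of 459.7 ± 15.03 CPM in controls and 558 ± 18.6 CPM with EET. Birc5 (ENSMUSG00000017716.15, chromosome 11, 117849251 to 117855743, plus strand) encodes survivin and was at 75.9, 67.3 and 63.9 CPM in the 3 controls and at 146, 148 and 119.7 CPM with EET. All EET libraries were above all controls, EET 3 being the lowest of them, and the gene rose by 0.997 ± 0.091, adjusted p = 1.83e-06. It was called higher in both corrected fits, but the size of the rise there depended on the transcript, 1.05 on the longest and 0.25 on the shortest principal one.

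Incenp, the scaffold that binds and activates Aurora B, was at 181, 177 and 170.4 CPM in the 3 controls and at 151, 149 and 151 CPM with EET. It fell (−0.23 ± 0.063, adjusted p = 0.0067) and was still lower in the corrected fits (−0.20 and −0.14). As counted, the log2 ratio of Birc5 to Incenp per kilobase went from −1.40 ± 0.089 in controls to −0.17 ± 0.18 with EET (mean ± SD, n = 3 each, exact two-sided permutation p = 0.1, adjusted p = 0.113). This ratio takes Birc5 at 3334 bases and not at the 947 of its shortest principal transcript, and its level and sign depend on that choice. In the corrected fits Birc5 was at 1.05 and 0.25 beside −0.20 and −0.14 for Incenp, a smaller gap on the shortest principal transcript. Cdca8, which encodes borealin, rose by 0.42 ± 0.07, adjusted p = 0.000155 and Aurkb, the kinase of the complex, by 0.31 ± 0.066, adjusted p = 0.00132; both were near 0 in the corrected fits (−0.035 and 0.054 for Cdca8, −0.012 and 0.031 for Aurkb). Sgo1, which protects centromeric cohesin, was not called as counted but was higher in both corrected fits, at 0.21 and 0.26.

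Of the 7 centromere and kinetochore members 5 rose and 2 fell, with a summed level of 579 ± 3.32 CPM in controls and 606 ± 7.74 CPM with EET. Cenpa (ENSMUSG00000029177.9, chromosome 5, 30666777 to 30674830, plus strand) encodes the histone H3 variant that marks the centromere. Cenpa was at 74.6, 66.6 and 67.5 CPM in the 3 controls and at 139, 136 and 119.8 CPM with EET. Its lowest EET library exceeded the highest control (119.8 against 74.6 CPM), the rise was 0.92 ± 0.078, adjusted p = 1.24e-06, and the gene was called higher in both corrected fits (0.40 and 0.51).

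All 4 subunits of the NDC80 complex, the main microtubule-binding unit of the kinetochore, rose. Their shortest principal transcripts are all under 2500 bases, a class in which 51.6% of coding genes and 15 of 17 members rose. Spc24 was at 59.3, 55.4 and 47.2 CPM in the 3 controls and at 96.6, 90.2 and 82.3 CPM with EET. Spc25 was at 29.8, 30.2 and 31.2 CPM in the 3 controls and at 54.8, 54.0 and 46.9 CPM with EET. These subunits, which anchor the complex to the inner kinetochore, rose by 0.73 ± 0.091, adjusted p = 1.54e-05 for Spc24 and 0.77 ± 0.086, adjusted p = 6.38e-06 for Spc25, with no overlap, and both were called higher in both corrected fits (0.31 and 0.24; 0.28 and 0.23). Ndc80 was at 43.7, 39.96 and 40.6 CPM in the 3 controls and at 54.9, 49.5 and 54.2 CPM with EET. Nuf2 was at 66.6, 57.5 and 62.4 CPM in the 3 controls and at 80.0, 77.7 and 77.4 CPM with EET. The subunits that hold the microtubule rose by 0.35 ± 0.08, adjusted p = 0.00204 for Ndc80 and 0.33 ± 0.075, adjusted p = 0.00184 for Nuf2. In the corrected fits Ndc80 was called higher only on the shortest principal transcript (0.12 and 0.22) and Nuf2 in neither (0.14 and 0.15). As counted, the log2 ratio to Ndc80 per kilobase differed between EET and control by 0.39 for Spc24 and 0.42 for Spc25 (each exact two-sided permutation p = 0.1, adjusted p = 0.113) and by −0.015 for Nuf2 (p = 0.9). The gap depended on the correction: Spc24, Spc25 and Ndc80 were at 0.31, 0.28 and 0.12 on the longest transcript. On the shortest principal one they were close together, at 0.24, 0.23 and 0.22.

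The 2 kinetochore members that fell are the large coiled-coil proteins of the outer corona. Cenpf, a kinetochore and nuclear matrix protein, was at 141, 164 and 163 CPM in the 3 controls and at 86.1, 92.3 and 104 CPM with EET. It fell (−0.73 ± 0.084, adjusted p = 8.03e-06), without overlap, and was lower in the corrected fits by less (−0.13 and −0.18). Cenpe, the kinetochore kinesin that moves chromosomes to the spindle equator, fell (−0.62 ± 0.069, adjusted p = 6.08e-06) from 162 to 169 CPM in controls to 103 to 115 CPM with EET. Its value was −0.093 and −0.10 in the corrected fits, and neither was called.

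None of the 7 genes of spindle motors and spindle assembly rose, and 5 fell (1 and 2 were lower in the longest and shortest principal corrected fits), with a summed level of 856 ± 9.61 CPM in controls and 730.4 ± 20.4 CPM with EET. Their longest transcripts have a median of 4365 bases, and of all coding genes of 4000 to 6000 bases 49.1% fell. Aspm, a spindle pole protein, had the largest fall of all members (−0.76 ± 0.11, adjusted p = 4.01e-05), from 62.7 to 81.8 CPM in controls to 39.2 to 48.3 CPM with EET. With the trend removed it was lower by less, at −0.16 and −0.21, the first with an adjusted p of 0.0528 and the second called. Hmmr, a microtubule-binding partner of TPX2 and the Aurora A pathway, was at 89.7, 100.1 and 99.97 CPM in the 3 controls and at 71.5, 74.5 and 83.3 CPM with EET. It fell (−0.34 ± 0.079, adjusted p = 0.00236) with no overlap between the groups and was the only gene of this role called lower in all 3 fits (−0.22 and −0.17 in the corrected ones).

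Kif11, the bipolar kinesin that separates the spindle poles, fell (−0.30 ± 0.076, adjusted p = 0.00383), as did the chromokinesin Kif4 (−0.28 ± 0.066, adjusted p = 0.00277) and Tpx2, the activator of Aurora A (−0.18 ± 0.065, adjusted p = 0.0367). None of these 3 was called in a corrected fit (Kif11 −0.048 and −0.014, Kif4 0.051 and 0.088, Tpx2 0.059 and −0.03). The call of Tpx2 was also lost without control 1, control 2, control 3 or EET 2 and with no filter on low counts. As counted, the log2 ratio of Tpx2 to Aurka per kilobase was 0.31 ± 0.046 in controls and −0.21 ± 0.039 with EET (mean ± SD, n = 3 each, exact two-sided permutation p = 0.1, adjusted p = 0.113). In the corrected fits Aurka was at 0.0068 and 0.093, so the gap between Tpx2 and Aurka was smaller there, with the opposite sign on the longest transcript. The microtubule depolymerase Kif2c (0.035 ± 0.072, adjusted p = 0.723) and the spindle assembly protein Nusap1 (0.043 ± 0.079, adjusted p = 0.692) had overlapping groups and were called in no fit.

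All 5 genes of the anaphase midzone and cytokinesis fell, and all 5 were called lower with the trend removed on the longest transcript as well. On the shortest principal transcript 3 of the 5 were. Over all genes tested 23.3% were called lower as counted, 15.2% on the longest and 15.9% on the shortest principal transcript. The longest transcripts of these 5 genes have 3026 to 4605 bases. As counted, 12.1% of all coding genes of 2000 to 4000 bases and 49.1% of those of 4000 to 6000 bases fell. The summed level of the 5 genes was 899 ± 32.0 CPM in controls and 675 ± 50.4 CPM with EET. Kif20a, the kinesin that carries the passenger complex to the midzone, was at 129.5, 138 and 138 CPM in the 3 controls and at 88.6, 78.0 and 105 CPM with EET. It fell (−0.58 ± 0.093, adjusted p = 0.00013), with EET 3 the highest of its group and still below every control, and kept most of that in the corrected fits (−0.46 and −0.50). Prc1 (ENSMUSG00000038943.16, chromosome 7, 80294450 to 80316259, plus strand) encodes the protein that bundles midzone microtubules. Prc1 was at 191, 202 and 191 CPM in the 3 controls and at 143, 134 and 161 CPM with EET. Its fall (−0.42 ± 0.075, adjusted p = 0.000322) hardly depended on the correction (−0.44 and −0.36).

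Anln (ENSMUSG00000036777.8, chromosome 9, 22332012 to 22389188, minus strand) encodes anillin, the scaffold of the contractile ring. It was at 286, 313 and 317 CPM in the 3 controls and at 200.3, 214 and 234 CPM with EET. The groups lay apart, the fall was −0.50 ± 0.074, adjusted p = 6.22e-05, and smaller falls were left in the corrected fits (−0.24 and −0.20, both called). Kif23, the kinesin of the centralspindlin complex, was at 136, 136 and 144 CPM in the 3 controls and at 117, 119 and 125 CPM with EET. Ect2, the RhoA activator that starts furrowing, was at 119, 123 and 131 CPM in the 3 controls and at 96.2, 104 and 108 CPM with EET. Kif23 (−0.20 ± 0.065, adjusted p = 0.0178) and Ect2 (−0.28 ± 0.071, adjusted p = 0.00463) had the smallest falls of this role and were not called on the shortest principal transcript (−0.076 and −0.10); the call of Kif23 was also lost without control 3, EET 1 or EET 2.

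The 2 most abundant members by counts both fell, and their summed level was 1285 ± 53.0 CPM in controls and 904 ± 56.7 CPM with EET. Top2a (ENSMUSG00000020914.17, chromosome 11, 98992943 to 99024189, minus strand) encodes topoisomerase II alpha, which disentangles sister chromatids, and was at 714, 738 and 703 CPM in the 3 controls and at 502, 486 and 549 CPM with EET. It fell (−0.49 ± 0.067, adjusted p = 3.50e-05) and was called lower in both corrected fits, at −0.17 and −0.14. Mki67, which encodes the Ki-67 protein that coats mitotic chromosomes and is the usual marker of proliferation, was at 514, 593 and 594 CPM in the 3 controls and at 375, 380.0 and 420.2 CPM with EET. Mki67 fell as counted (−0.53 ± 0.076, adjusted p = 4.33e-05). Its coding transcript has 10061 bases by either measure, and with the trend removed it was at 0.090 (adjusted p = 0.118) and 0.027 (adjusted p = 0.664), with no call.

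**Figure D4:**
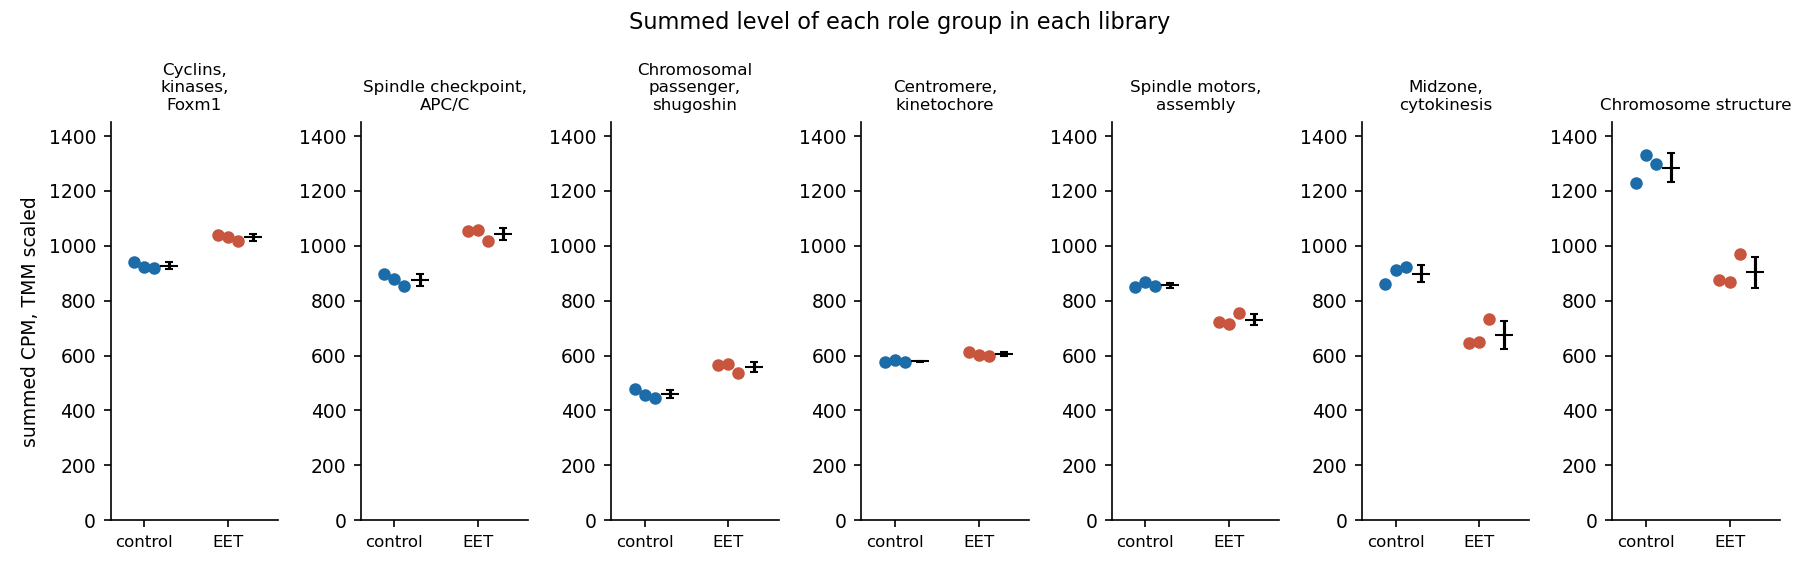
Summed CPM (TMM scaled, linear axis from 0) of the members of each role in each control (blue) and EET (red) library, with mean ± SD in black. The sums for cyclins and kinases, checkpoint and APC/C, chromosomal passenger, and centromere and kinetochore are higher in every EET library than in every control. Those for spindle motors, midzone and cytokinesis, and chromosome structure are lower in every EET library.

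Exons of some members overlap exons of another gene on the opposite strand, and no source used here gives the strand setting of the counting. The partners with most counts, over all 6 libraries, were Elovl1 (19410) for Cdc20 (41937), Cdc23 (14656) for Kif20a (23355), Exosc9 (13283) for Ccna2 (38803), Pdzd11 (7067) for Kif4 (19711), 9930104L06Rik (3298) for Cdca8 (22346), Oip5 (2021) for Nusap1 (11856) and Rccd1 (1703) for Prc1 (35218). Without strand, reads of such partners cannot be told apart, so the levels of these 7 members are uncertain. The annotation also holds pseudogenes named after Ccnb1, Ccnb2 and Kif4, whose reads could be shared with them. Cdc23, an APC/C subunit, was itself lower with EET (−0.27 ± 0.074, adjusted p = 0.00749).

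Other genes of the same machinery also moved both ways: of 134 in the lists, 54 rose and 45 fell, beside 24.6% and 23.3% of all genes tested. With the trend removed, 34 were higher and 27 lower on the longest transcript, beside 16.3% and 15.2% of all genes. On the shortest principal transcript these were 39 and 28, beside 17% and 15.9%. In the inner kinetochore and CENP-A loading list 15 of 20 rose and 3 fell (median 0.66), with 9 higher and 2 lower in the longest and 10 and 1 in the shortest principal corrected fit. Cenps, which encodes a histone-fold subunit, rose by 1.23 ± 0.14, adjusted p = 9.35e-06 and Mis18a, needed to load CENP-A, by 0.83 ± 0.10, adjusted p = 1.03e-05; both were called higher in both corrected fits (0.46 and 0.56 for Cenps, 0.24 and 0.36 for Mis18a). The longest transcripts of this list have a median of 1878 bases, and of all coding genes under 2000 bases 65.6% rose and 1.34% fell. Of the other outer kinetochore and checkpoint genes 5 of 18 rose and 2 fell (median 0.066), with 4 higher and 1 lower in the longest and 4 and 3 in the shortest principal corrected fit. Pmf1, a subunit of the MIS12 complex, rose by 0.79 ± 0.10, adjusted p = 2.64e-05 and was not called when corrected (−0.032 and 0.051), while Knl1, the platform for the BUB proteins, fell (−0.97 ± 0.13, adjusted p = 7.45e-05) and was called lower in both corrected fits (−0.53 and −0.58).

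Among APC/C subunits and regulators 13 of 19 rose and 4 fell (median 0.47), with 10 higher and 1 lower in the longest and 10 and 1 in the shortest principal corrected fit. Ube2s, the enzyme that extends the ubiquitin chain, rose by 1.12 ± 0.10, adjusted p = 1.62e-06 and the subunit gene Anapc16 by 0.99 ± 0.10, adjusted p = 2.60e-06, and both were called higher in both corrected fits (0.43 and 0.49 for Ube2s, 0.65 and 0.74 for Anapc16). Exons of Ube2s overlap those of the abundant ribosomal gene Rpl28 on the opposite strand (102147 counts beside 44737), so its level is uncertain. Genes of G2 control moved both ways: 10 of 27 rose and 7 fell (median 0.12), with 6 higher and 5 lower in the longest and 8 and 4 in the shortest principal corrected fit. Cks1b and Cks2, the small subunits that bind cyclin-dependent kinases, rose by 1.24 ± 0.088, adjusted p = 6.36e-07 and 1.05 ± 0.10, adjusted p = 2.29e-06. Cks1b was called higher in both corrected fits (0.31 and 0.46) and Cks2 on the shortest principal transcript alone (0.079 and 0.22).

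Condensin and cohesin genes were mostly lower: 2 of 20 rose and 16 fell (median −0.43), with 1 higher and 9 lower in the longest and 1 and 8 in the shortest principal corrected fit. Nipbl, the cohesin loader, fell (−0.94 ± 0.11, adjusted p = 1.91e-05) and Stag1, a cohesin subunit, fell (−0.53 ± 0.076, adjusted p = 5.18e-05), and Nipbl was called lower in both corrected fits (−0.37 and −0.42). Stag1 was called on the longest transcript (−0.13) and not on the shortest principal one (−0.11, adjusted p = 0.0771). The longest transcripts of this list have a median of 4771 bases, and of all coding genes of 4000 to 6000 bases 6.09% rose and 49.1% fell. For other spindle and microtubule genes 9 of 30 rose and 13 fell (median −0.035), with 4 higher and 9 lower in the longest and 6 and 11 in the shortest principal corrected fit. Numa1, which organises spindle poles, fell (−0.71 ± 0.069, adjusted p = 2.56e-06) and was called lower in both corrected fits (−0.19 and −0.15). The microtubule plus-end protein gene Clasp1 fell (−0.76 ± 0.079, adjusted p = 4.15e-06) and was called on the shortest principal transcript (−0.16) and not on the longest (−0.12, adjusted p = 0.0798). In a list of genes of G1, S phase and DNA replication, given for context, 14 of 30 rose and 3 fell (median 0.14), with 9 higher and 5 lower in the longest and 11 and 3 in the shortest principal corrected fit. Gins2, of the GINS complex at the replication fork, rose by 1.02 ± 0.10, adjusted p = 2.26e-06 and Orc6, of the origin recognition complex, by 0.83 ± 0.08, adjusted p = 2.48e-06, and both were called higher in both corrected fits (1.17 and 1.23 for Gins2, 0.30 and 0.32 for Orc6).

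Markers of the labelled cell type were present and abundant. Of 12 myogenic markers 7 rose and 2 fell, with a summed level of 4211 to 4515 CPM in controls and 4824 to 4945 CPM with EET; Myod1 stood at 977 ± 42.4 and 1159 ± 13.9 CPM. In the corrected fits 3 myogenic markers were higher and 1 lower (longest) or 4 and 0 (shortest principal), and Myod1 turned from called higher as counted (0.25) to called lower on the longest transcript (−0.14). Of the markers of other cells, endothelial and glial ones were mostly lower as counted, and most fibro-adipogenic and leukocyte ones were not called. Over all genes tested 24.6% were called higher and 23.3% lower. Of 10 endothelial markers 0 rose and 7 fell, summing to 309 to 325 CPM in controls and 184 to 202 CPM with EET. Of 10 glial markers 1 rose and 6 fell (663 to 679 CPM in controls and 538 to 580.2 CPM with EET), of 9 measured fibro-adipogenic markers 0 rose and 2 fell (442 to 454 CPM in controls and 412 to 422 CPM with EET), and of 10 leukocyte markers 0 rose and 2 fell (322 to 354 CPM in controls and 209 to 400.5 CPM with EET), the EET libraries differing widely. In the longest and shortest principal corrected fits 8 and 8 endothelial, 6 and 5 glial, 4 and 3 fibro-adipogenic and 6 and 7 leukocyte markers were lower, and 1 glial and 1 leukocyte marker were higher in each. Pecam1, a defining endothelial marker, was at 76.9 ± 2.49 and 50.4 ± 3.42 CPM. None of the markers that passed the filter was at 0 on average in either group, and their part in the levels of the mitotic genes was not tested.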

How the data were processed

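The submitters' table gives whole-number counts per gene symbol for 6 libraries, as deposited by the authors. Tools listed without a role, per the submitters' processing notes, are FastQC, cutadapt and DESeq2, with GRCm38 as the build. The aligner, read counter, strand setting and gene annotation were not given in the sources used here. Members and lists were chosen with earlier results of these data known. Counts were filtered with filterByExpr, scaled by TMM and tested with edgeR 4.0.16 (robust quasi-likelihood test, EET against control, R 4.3.3) over 16097 genes, with Benjamini-Hochberg adjustment and a threshold of 0.05. Single sums and ratios were compared by exact two-sided permutation. Transcript lengths, GC content and gene positions came from GENCODE M21 on GRCm38, and 53365 of 55494 rows matched it by symbol. Each library's loess trend (span 0.3) over coding genes entered the corrected fits as an offset, and other genes kept none. The fit as counted and the longest-transcript correction were run on simulated counts with known changes, with and without a trend on the longest length. The shortest principal correction was not simulated, so the simulation cannot say which length to use. Values per library are given for members called the same way as counted and with the longest-transcript trend removed, and for a fixed set of mitotic entry, checkpoint and kinetochore genes. Of each other list the 2 genes with the smallest p are named. No pair of libraries agreed within sampling noise. The alternatives tried were RLE scaling, library totals, other filters, DESeq2 1.42.0, a fit without robust estimation, halved counts (even counts were in excess), the replicate number as a block and left-out libraries.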

Additional observations from a re-analysis of the deposited data

How the results depend on the processing

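The counts of 15 higher and 17 lower members stayed within 15 to 16 and 15 to 17 under every scaling, filter, tool and left-out library tried. They moved with the length and GC trend removed, to 9 higher and 12 lower on the longest transcript and to 10 higher and 9 lower on the shortest principal one. The median log2 fold change of −0.022 went to −0.091 with library totals and to 0.0063 with the shortest principal trend removed. Values that changed sign with the longest-transcript trend removed were Cdc20 (−0.057), Aurkb (−0.012), Cdca8 (−0.035), Kif2c (−0.017), Kif4 (0.051), Tpx2 (0.059) and Mki67 (0.090). On the shortest principal transcript these were Cdk1 (−0.042), Bub1 (0.017), Ube2c (−0.12), Kif4 (0.088) and Mki67 (0.027). With library totals Kif2c (−0.034) and Nusap1 (−0.026) changed sign. The cause was not tested. Leaving out 1 library gave ranges of −0.023 to 0.013 for Ttk, −0.0092 to 0.085 for Kif2c and −0.010 to 0.081 for Nusap1, none of them called. Tpx2 lost its call with no filter (adjusted p = 0.0631) and without any of 4 libraries, and Kif23 without any of 3. Beside 54 higher and 45 lower as counted, the other lists held 34 and 27 on the longest and 39 and 28 on the shortest principal transcript.

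Whether replicate numbers pair the libraries could not be told. Deviations from the group means correlated at 0.39, −0.13 and 0.34 for same-numbered libraries and at −0.48 to 0.30 for differently numbered ones. Deviations within a group of 3 libraries are tied to each other, so these values cannot decide it. With the replicate number as a block, 16 members were higher and 17 lower, Ccna2 being added (adjusted p = 0.0377). With the block and the longest-transcript trend removed together, the values were −0.057 for Cdc20, −0.014 for Aurkb, −0.035 for Cdca8, −0.016 for Kif2c, 0.052 for Kif4, 0.058 for Tpx2 and 0.090 for Mki67.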

Other observations

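Over the members, the correlation of the log2 fold change with log2 transcript length was r = −0.058 (Spearman rho −0.25) after the trend of the longest coding transcript was removed, measured on that length. After the trend of the shortest principal transcript was removed it was r = −0.45 (rho −0.50), measured on the shortest principal length (40 genes of the same 6 libraries, a description with no test). Some dependence on length was therefore left among the members.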
